A study of Homo sapiens with 6 samples.

Results

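Chemokines and cytokines that epithelium makes were examined as a set of 9 genes, namely CXCL1, CXCL2, CXCL3, CXCL5, CXCL8, CXCL16, CX3CL1, CCL20 and IL18, out of 35810 genes with a transcript in the files. They were listed by name as chemokine and cytokine genes of epithelium, with earlier results of these data known. The RNA came from SPT5-AID cells, which are DLD-1 colorectal adenocarcinoma cells whose elongation factor SPT5 carries an auxin-inducible degron, a tag that leads to degradation of the protein once auxin is added. All 6 libraries share this genotype, and their labels name no auxin. In 3 libraries the cells expressed an shRNA against ARMC5 (shARMC5), a BTB protein that the study examines as an adaptor of the CUL3 ubiquitin ligase, and in the other 3 a nontargeting shRNA (shNT), both delivered by lentivirus with puromycin selection of the infected cells. The study describes 2 shRNA constructs against ARMC5 and does not name the one used here, and its statistical methods count replicates as biological. Neither they nor the labels say whether the 3 replicates of a group were separate infections, so that P values measure the spread between these libraries.

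Chemokines are small secreted proteins that bind G protein-coupled receptors and direct the migration of leukocytes. CXCL1, CXCL2, CXCL3, CXCL5 and CXCL8 carry an ELR motif before their CXC cysteines and attract neutrophils through the receptors CXCR1 and CXCR2. CXCL16 and CX3CL1 are made as transmembrane proteins, which hold cells that carry CXCR6 or CX3CR1 at the surface and become soluble chemoattractants once ADAM10 or ADAM17 cuts them. CCL20 attracts CCR6-positive lymphocytes and dendritic cells to mucosa, and IL18 is an IL-1 family cytokine that intestinal epithelium stores as a precursor until a caspase such as caspase-1 cleaves it. In epithelium, the neutrophil chemokines and CCL20 are classical targets of NF-κB and are induced by IL-1, TNF, IL-17 and microbial products, with mRNAs that are short-lived owing to AU-rich elements.

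The neutrophil chemokine genes lie in 1 cluster on chromosome 4 of GRCh38, CXCL8 at chr4:73740519-73743716 and CXCL1 at chr4:73869393-73871308 on the plus strand, and CXCL5 at chr4:73995642-73998677, CXCL3 at chr4:74036589-74038807 and CXCL2 at chr4:74097040-74099196 on the minus strand. Promoter sequences from RefSeq (GRCh38.p14), which run from 250 bases before to 50 bases after a start, were found for 6 of the 9 genes, the 5 of this cluster and CCL20. They were searched for an NF-κB motif, GGNNTTTCC, and an AP-1 motif, TGANTCA, on both strands, and for TATAAA on the strand of the gene, motifs whose matches do not overlap each other in the sequences below. All 6 promoters hold the NF-κB motif, which 6.26% of 27305 RefSeq promoter windows of the same length hold. Those of CXCL16, CX3CL1 and IL18, which are among the genes found higher below, were not searched. The AP-1 motif is in the CXCL8 promoter only, against 7.76% of all windows, and TATAAA is in those of CXCL8 and CCL20, against 7.71%. The stretches before the starts are shown because they set the 3 paralogs CXCL1, CXCL2 and CXCL3 beside CXCL5, which is read far more often in these cells. Positions are counted back from the RefSeq start, from -150 to -44 (CXCL8, to -51), on the strand of each gene, and capitals mark the NF-κB motif and, in CXCL8, also the AP-1 motif TGACTCA. The stretches lie at chr4:73869243-73869349 (CXCL1, plus), chr4:74099239-74099345 (CXCL2, minus), chr4:74038733-74038839 (CXCL3, minus), chr4:73998721-73998827 (CXCL5, minus) and chr4:73740419-73740518 (CXCL8, plus). For CXCL3, 75 of the 107 bases lie within the gene as GENCODE draws it, since its transcript CXCL3-204, which has no defined coding sequence, starts before the RefSeq start, while the CXCL8 stretch ends where the GENCODE gene begins.
CXCL1: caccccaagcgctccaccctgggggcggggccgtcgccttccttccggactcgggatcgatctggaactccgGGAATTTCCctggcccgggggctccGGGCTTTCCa
CXCL2: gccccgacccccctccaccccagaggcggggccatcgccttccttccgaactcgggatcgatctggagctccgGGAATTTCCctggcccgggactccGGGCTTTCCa
CXCL3: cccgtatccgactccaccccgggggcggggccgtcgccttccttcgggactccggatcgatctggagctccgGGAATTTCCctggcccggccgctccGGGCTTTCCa
CXCL5: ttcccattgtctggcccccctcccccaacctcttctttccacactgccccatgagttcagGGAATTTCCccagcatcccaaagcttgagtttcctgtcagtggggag
CXCL8: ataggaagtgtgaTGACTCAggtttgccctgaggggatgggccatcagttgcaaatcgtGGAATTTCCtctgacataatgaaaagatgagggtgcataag

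The same 9 bases, GGAATTTCC, are in all 5 promoters, between -91 and -69. CXCL1, CXCL2 and CXCL3 share a further match, GGGCTTTCC, from -53 to -45. The stretch of CXCL1 from -150 to -44 was 86.2% identical to that of CXCL2 and 88.9% to that of CXCL3 after alignment, against 47.6% to that of CXCL5. CXCL5 thus shares the 9 bases but little of the sequence around them. A match is a description of the sequence and says nothing of binding, which was not measured here.

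Depth was similar in both groups. Between 26201112 and 40866478 estimated reads per library were assigned to transcripts, of which 2.96 to 3.04% fell on transcripts without a match in GENCODE release 44. ARMC5, at chr16:31458080-31467166, had 326, 472 and 326 reads in shARMC5 and 753, 841 and 749 reads in shNT libraries, or 11.9 ± 1.09 and 25.2 ± 1.95 CPM (reads per 1000000 on genes, TMM-normalized; SD, n = 3), a log2 fold change of -1.09 (standard error 0.08, edgeR adjusted P = 5.32e-07). Of the 13737 genes with at least 10 reads in at least 3 libraries, 1064 (7.75%) had an adjusted P value under 0.1, the threshold of the study, which is what is meant by called below. Higher levels in shARMC5 cells were called for 4.44% of the tested genes and lower levels for 3.3%.

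Epithelial keratins and EPCAM were abundant in the libraries, with 24133 to 38712 reads on EPCAM, and the intestinal transcription factor gene CDX2 had 3355 to 5030 reads, whereas CDX1 was at 0 and the intestinal lectin gene LGALS4 had 3 to 13 reads. The summed level of the 9 epithelial marker genes found in the files was 8530 to 8830 TPM (transcripts per 1000000) in shARMC5 and 7530 to 8050 TPM in shNT libraries. Of the 7 tested marker genes, KRT8, KRT18 and KRT19 were higher, by 0.18, 0.25 and 0.11 on the log2 scale, and the microvillus gene VIL1 was lower, by -1.30 (edgeR adjusted P = 2.77e-06). Their part in the results below was not tested. In bulk RNA, fewer cells with a transcript and less of it per cell cannot be told apart. Markers of leukocytes came to 1.9 to 3.3 TPM in shARMC5 and 1.96 to 4.06 TPM in shNT libraries over 10 genes, with PTPRC at 0 to 1 reads and CD3E at 0. Those of fibroblasts (6 genes) and endothelium (4 genes) came to at most 1.31 and 0.368 TPM in any library.

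The 9 genes differed widely in level. CXCL5 was the most abundant at 331 ± 10.7 TPM (SD, n = 3) in shNT cells, which placed it at rank 391 of 20006 genes with a value above 0. IL18 followed at 71.4 ± 4.73 TPM (rank 2322) and CXCL16 at 36.5 ± 4.44 TPM (rank 4253). CX3CL1 was far below these at 3.1 ± 0.437 TPM, and CXCL3 at 2.31 ± 0.631 TPM overlapped with it in single libraries. CXCL2 (0.904 ± 0.417 TPM), CXCL8 (0.475 ± 0.292 TPM), CXCL1 (0.408 ± 0.239 TPM) and CCL20 (0.359 ± 0.239 TPM) were near the limit of detection. In single shNT libraries each of these 4 overlapped with its neighbours among them in this order, whereas CXCL3 and CXCL2 did not overlap. CXCL5 alone made up 80.4 to 82.8% of the summed TPM of 44 chemokine genes (the 8 of this set and 36 others) in the 6 libraries. All 9 genes together took 0.0504 to 0.053% of the reads on genes in shNT and 0.0622 to 0.0635% in shARMC5 libraries.

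**Figure D1:**
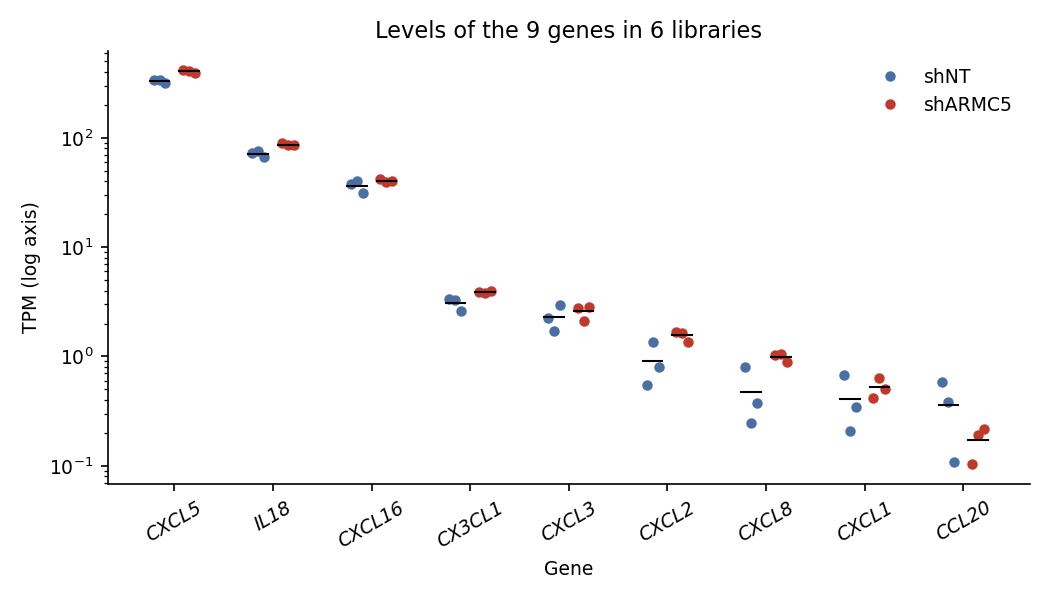
Level of each gene in TPM (vertical log axis) in the 3 shNT (blue) and 3 shARMC5 (red) libraries, with a line at the mean, in order of the mean in shNT libraries. CXCL5 is above all others in every library, and the 5 genes from CXCL3 to CCL20 lie at or under 2.97 TPM.

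The question put to these libraries is which genes change when ARMC5 is knocked down in SPT5-AID cells whose labels name no auxin. Of the 9 genes, 4 were called higher in shARMC5 cells (CXCL5, IL18, CXCL16 and CX3CL1) and 0 lower, beside 4.44% and 3.3% of all tested genes. DESeq2 without a length offset called 3 higher and 0 lower, beside 4.24% and 3.15% of the 11868 genes to which it gave an adjusted P value. With transcript length as an offset, DESeq2 called 2 higher (CXCL5 and IL18) and 0 lower, with 568 genes called over all. The study used DESeq2 on salmon estimates summarized with tximeta and does not state whether lengths entered as an offset. In edgeR, none of the 7 tested genes was lower at an unadjusted P value under 0.05. The 4 called genes were the 4 with the most reads, and their levels rose to between 1.16 and 1.29 times those in shNT cells. CXCL2, CXCL3 and CXCL8 were tested and not called. CXCL1 and CCL20 did not reach 10 reads in 3 libraries and were not tested. In CPM, every shARMC5 library was above every shNT library for 6 of the 9 genes (the 4 called ones, CXCL2 and CXCL8), which holds for 12.5% of the tested genes. In that case the two-sided exact permutation test gives P = 0.1, the smallest that 3 libraries against 3 can give.

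**Figure D2:**
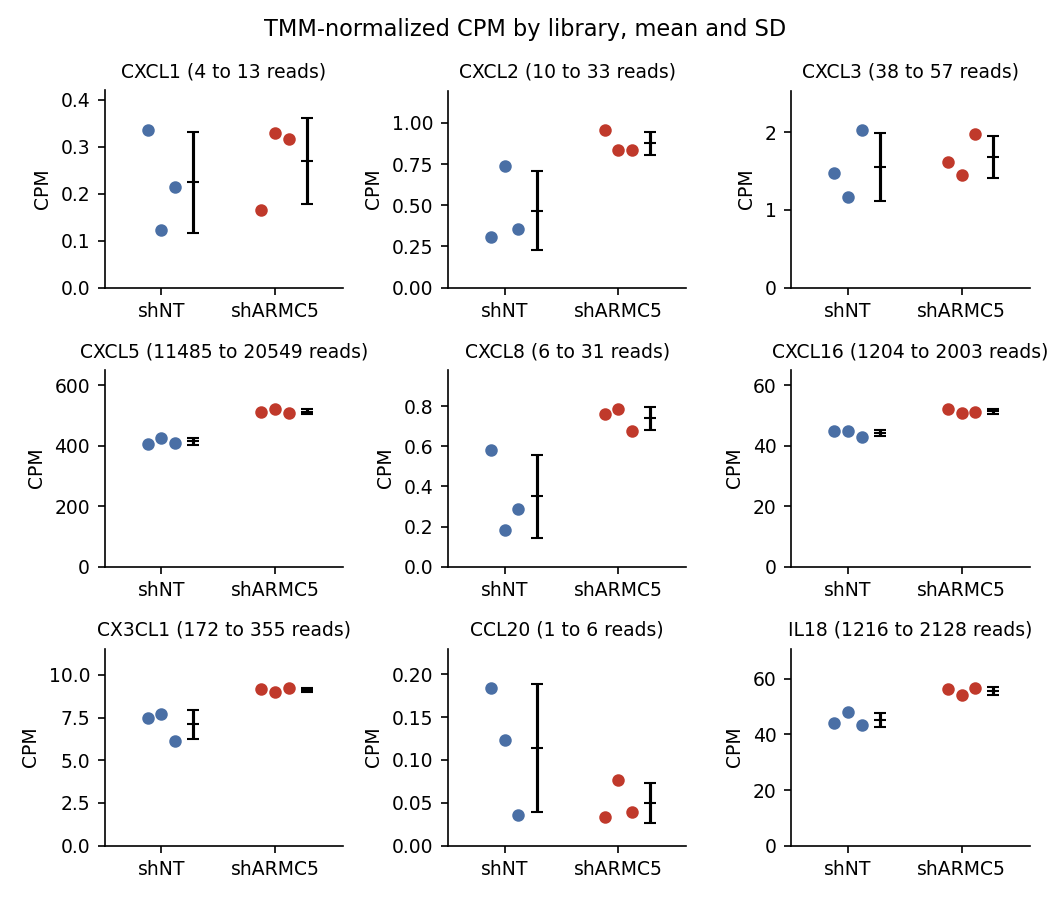
TMM-normalized CPM (vertical axes start at 0 and differ between panels) of each of the 9 genes in the 3 shNT (blue) and 3 shARMC5 (red) libraries, with the mean and SD in black and the range of reads in the title. The groups stand apart for CXCL5, IL18, CXCL16 and CX3CL1 at 172 reads or more per library, and for CXCL2 and CXCL8 at 33 reads or fewer.

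CXCL5, a neutrophil chemokine of epithelial cells, was the most precisely measured gene of the set. It had 15462, 20549 and 12769 reads in shARMC5 replicates 1, 2 and 3 and 13269, 13827 and 11485 reads in shNT replicates 1, 2 and 3. Scaled to the depth of each library, this was 510, 521 and 506 CPM in shARMC5 and 406, 426 and 410 CPM in shNT cells. The lowest shARMC5 library was thus above the highest shNT library, by far more than the spread within either group. The level rose 1.24-fold, a log2 fold change of 0.31 (standard error 0.03, edgeR adjusted P = 2.86e-06), rank 17 of the tested genes by P value and rank 731 by fold change. Per length, CXCL5 rose from 331 ± 10.7 to 407 ± 11.2 TPM (SD, n = 3). All of its reads belong to a single transcript, CXCL5-201 of 2436 bases, so no division between isoforms enters its count. GENCODE places 422 of these bases on exons of a long noncoding RNA of the opposite strand, ENSG00000287037, whose reads were not analysed here, and the library kit does not mark strand.

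IL18 was also higher. It lies at chr11:112143253-112164096 on the minus strand and had 1702, 2128 and 1430 reads in shARMC5 and 1439, 1564 and 1216 reads in shNT cells. This was 89.8, 85.2 and 85.2 TPM against 72.2, 75.7 and 66.3 TPM. The groups did not overlap, and the level in CPM rose 1.23-fold, from 45.2 ± 2.63 to 55.6 ± 1.45 (SD, n = 3; log2 fold change 0.30, standard error 0.05, edgeR adjusted P = 0.00141). The 2 main coding transcripts, IL18-201 and IL18-202, gave 46.6 to 57.6% and 29.5 to 42.3% of its TPM. IL18-201 was at 44.1 ± 4.03 TPM in shARMC5 and 37.8 ± 1.63 TPM in shNT cells (SD, n = 3), and IL18-202 at 35.5 ± 2.24 and 26.8 ± 6.36 TPM. Reads that transcripts share were divided between them by salmon. On log2(TPM + 0.1) with limma, the fold change of IL18 was 0.28 with an adjusted P of 0.118, and it was 0.28 with 0.128 on log2(TPM + 1), so the call was lost there.

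CXCL16, the membrane-bound ligand of CXCR6, rose by less. It is at chr17:4733533-4739928 on the minus strand. It had 52.2, 50.8 and 51.2 CPM in shARMC5 and 44.9, 44.8 and 43.0 CPM in shNT cells, from 1204 to 2003 reads per library. The spread within each group was small beside the difference, which was 1.16-fold (log2 fold change 0.22, standard error 0.04, edgeR adjusted P = 0.00795). In TPM the groups overlapped, at 41.7, 39.4 and 40.2 in shARMC5 and 37.8, 40.2 and 31.6 in shNT libraries. The short transcript CXCL16-204 of 619 bases, which has no defined coding sequence, was estimated at 33.5% of the TPM of the gene in shNT replicate 2 but at 14.7% in shNT replicate 3, and the average effective length of CXCL16 was 1566 bases in the former library and 1869 bases in the latter. With transcript length as an offset, the fold change was 0.17 and the adjusted P value 0.431 in edgeR, and 0.16 and 0.429 in DESeq2, so the call was lost there. Exons of MED11 and ZMYND15 on the opposite strand share 76 and 96 of its 2793 exonic bases. MED11 (up to 568 reads per library) and ZMYND15 (up to 54 reads) were not called, with log2 fold changes of 0.07 (standard error 0.07) and 0.12 (standard error 0.28).

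CX3CL1, the membrane-bound ligand of CX3CR1, lies at chr16:57372477-57385044 on the plus strand. It was at 9.17, 9.0 and 9.24 CPM in shARMC5 and at 7.46, 7.71 and 6.14 CPM in shNT cells, from 172 to 355 reads. The shARMC5 libraries were close together, and shNT replicate 3 was the lowest of all. The rise was 1.29-fold (log2 fold change 0.36, standard error 0.11, edgeR adjusted P = 0.0741). This was the largest adjusted P value of the 4 calls. The call was lost when any one library other than shNT replicate 2 was left out (log2 fold change 0.27 to 0.42 over the 6 such fits), and with transcript length as an offset (0.35, adjusted P = 0.301) or with DESeq2 (0.36, adjusted P = 0.153). With that length offset, 2 of the 9 genes remained called higher in edgeR, CXCL5 and IL18, beside 1.01% of the tested genes. Transcript CX3CL1-201 gave 71.5 to 96.9% of the TPM of the gene.

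**Figure D3:**
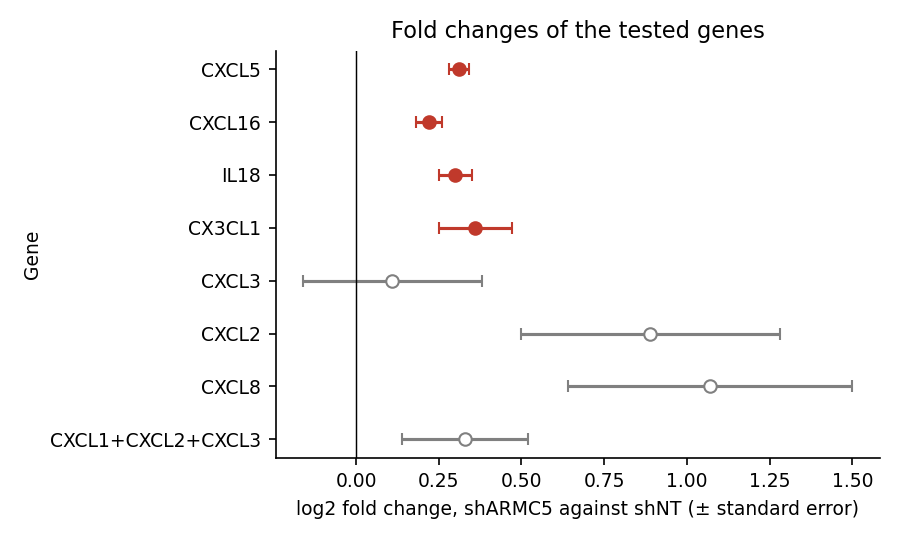
Log2 fold change of shARMC5 against shNT (horizontal axis) with its standard error from edgeR for the 7 tested genes and for CXCL1, CXCL2 and CXCL3 summed, filled red where the adjusted P value is under 0.1. The 4 called genes lie between 0.22 and 0.36, and CXCL2 and CXCL8 lie higher but with standard errors of 0.39 and 0.43.

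CXCL8, the neutrophil chemokine also known as interleukin-8, was barely expressed. It had 23, 31 and 17 reads in shARMC5 and 19, 6 and 8 reads in shNT replicates 1, 2 and 3, all on transcript CXCL8-201. In CPM these are 0.759, 0.786 and 0.674 against 0.581, 0.185 and 0.285. The 3 shARMC5 libraries were above the 3 shNT libraries, with a narrow gap to shNT replicate 1. The log2 fold change was 1.07 with a standard error of 0.43 and an edgeR adjusted P of 0.196, so that a difference was not established at this depth. With limma on log2(TPM + 1), a scale that shrinks the change of low genes, it was 0.45, and DESeq2 gave no adjusted P value. Of the 6 fits with a library left out, 1 was called, that without shNT replicate 1, the control library nearest to the shARMC5 libraries (1.66, edgeR adjusted P = 0.0842). The other 5 had adjusted P values of 0.251 to 0.381, and the log2 fold change fell to 0.75 without shNT replicate 2.

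CXCL2, also a ligand of CXCR2, had 29, 33 and 21 reads in shARMC5 and 10, 24 and 10 reads in shNT cells. These correspond to 0.957, 0.837 and 0.833 CPM against 0.306, 0.74 and 0.357 CPM. As for CXCL8, the groups did not overlap and 1 shNT library, here replicate 2, was close to the shARMC5 libraries. The log2 fold change was 0.89 (standard error 0.39, edgeR adjusted P = 0.24), against 0.45 with limma on log2(TPM + 1), and DESeq2 again gave no adjusted P value. Of the 6 fits with a library left out, the 1 without that library was called (1.40, edgeR adjusted P = 0.0721). The other 5 had adjusted P values of 0.32 to 0.52, and the log2 fold change fell to 0.65 without shNT replicate 1. CXCL2 and CXCL8 had the largest fitted changes of the 7 tested genes and the largest errors.

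CXCL3 did not differ beyond its spread, with 49, 57 and 50 reads in shARMC5 and 48, 38 and 57 reads in shNT cells (1.62, 1.45 and 1.98 against 1.47, 1.17 and 2.03 CPM). The groups overlapped, and the log2 fold change was 0.11 (standard error 0.27, edgeR adjusted P = 0.887), with a sign that turned when shARMC5 replicate 3 or shNT replicate 2 was left out. CXCL1, a ligand of CXCR2 like CXCL3, had 5, 13 and 8 reads in shARMC5 and 11, 4 and 6 reads in shNT cells. Its groups overlapped in CPM (0.165, 0.33 and 0.317 against 0.336, 0.123 and 0.214). When all genes with at least 1 read were tested, its log2 fold change was 0.27 with a standard error of 0.67.

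CXCL1, CXCL2 and CXCL3 are close paralogs. Their coding transcripts are 69.2 to 83.7% identical after alignment, and 11.6% of the stretches of 31 bases in CXCL2 transcripts also occur in CXCL1 and 14.0% in CXCL3. Reads from these stretches can only be divided by estimation, so the 3 genes were also summed. The sum was 83, 103 and 79 reads in shARMC5 and 69, 66 and 73 reads in shNT cells, or 2.74, 2.61 and 3.13 against 2.11, 2.04 and 2.61 CPM. In CPM every shARMC5 library was above every shNT library, by a margin lost in rounding for shARMC5 replicate 2 and shNT replicate 3, and in TPM the groups stood apart at 4.91, 4.36 and 4.73 against 3.46, 3.29 and 4.12. The log2 fold change was 0.33 (standard error 0.19, edgeR adjusted P = 0.399), and it was not called under any of the alternatives.

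CCL20, at chr2:227805739-227817564 on the plus strand, was at the floor of the assay, with 1, 3 and 1 reads in shARMC5 and 6, 4 and 1 reads in shNT cells. These few reads were spread over 4 of its 5 transcripts. Its direction cannot be read from 5 against 11 reads in all, and in the test without the filter its log2 fold change was -1.11 with a standard error of 1.15 (edgeR adjusted P = 0.708).

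**Figure D4:**
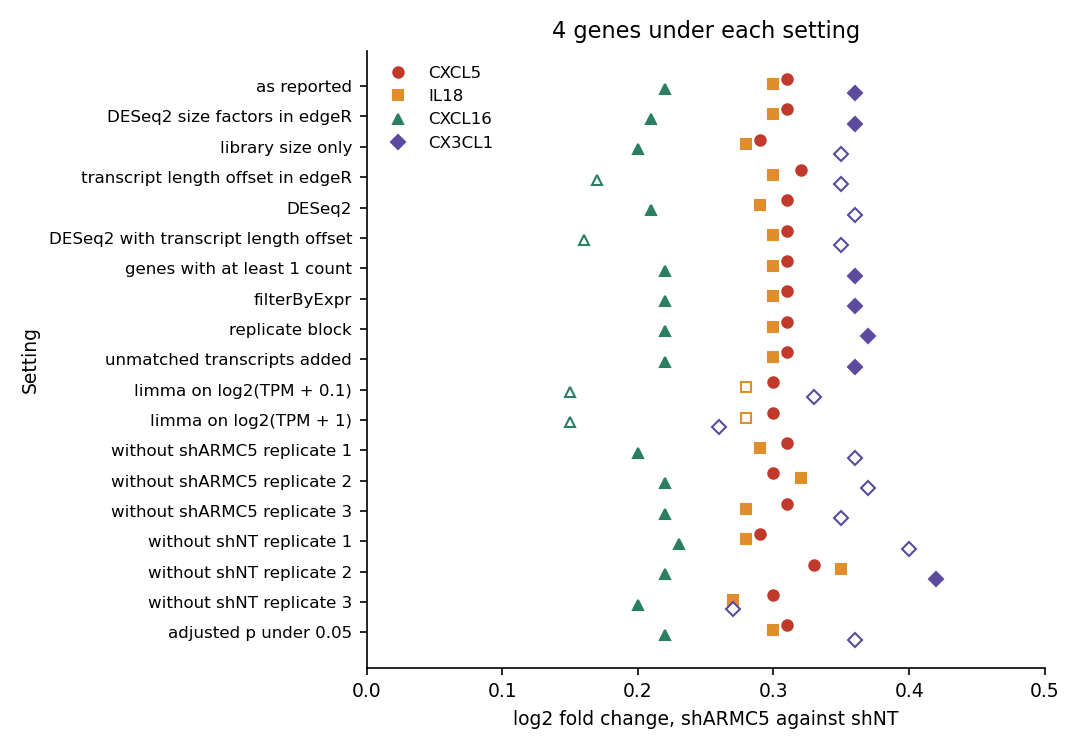
Log2 fold change (horizontal axis) of CXCL5, IL18, CXCL16 and CX3CL1 under the reported setting and each alternative (vertical axis), filled where the gene is called. CXCL5 is called throughout, IL18 in all but the limma fits on TPM, and CX3CL1 is drawn as an empty symbol in 12 of the 18 alternatives.

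The genes that act with these chemokines and cytokines were taken from 8 lists of 175 genes in all. Of the 174 found in the files 99 were tested, 8 were called higher and 1 lower, beside 4.44% and 3.3% of all tested genes, the shares against which the count of each list below is to be read. The median log2 fold change over all tested genes was 0.0. Of 36 other chemokine ligand genes, 5 were tested and none was called by edgeR at an adjusted P value under 0.1, 0 had an unadjusted P value under 0.05, DESeq2 called 0, and their median was 0.13. Most were silent, with 21 of the 36 at 0 in every library, among them CXCL6 and PPBP, which lie in the same cluster on chromosome 4. The most abundant were PF4, the platelet chemokine, at 16.2 ± 0.911 TPM in shARMC5 and 13.6 ± 0.557 TPM in shNT cells (log2 fold change 0.27, standard error 0.14, edgeR adjusted P = 0.314), and the eosinophil chemokine CCL26 at 15.7 ± 0.863 and 13.8 ± 0.791 TPM (0.20, standard error 0.15, adjusted P = 0.505).

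The receptors were near 0. CXCR1 had 0 to 1 reads, CXCR2 1 to 7, CXCR6 4 to 12, CX3CR1 0 to 3 and CCR6 18 to 31 reads per library; these 5 were named because they are the receptors of the 8 chemokines. Of 23 receptor genes 5 were tested and none was called (0 at an unadjusted P value under 0.05 and 0 by DESeq2), with a median log2 fold change of 0.01. CCRL2 and CCR3, the 2 tested receptors of highest level, had log2 fold changes of 0.01 (standard error 0.28) and -0.04 (standard error 0.33).

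Of 34 other epithelial cytokine genes in the files, 18 were tested, 3 were called higher and 0 lower, with a median of 0.14. TGFB1, an anti-inflammatory and fibrogenic cytokine, rose from 11.3, 9.59 and 9.96 CPM in shNT to 17.5, 14.7 and 15.9 CPM in shARMC5 cells (log2 fold change 0.64, standard error 0.09, edgeR adjusted P = 0.000465), a call that was lost in the 2 limma fits (adjusted P = 0.181 and 0.189). LIF, an IL-6 family cytokine, rose by 0.41 (standard error 0.05, adjusted P = 0.000134), a call that was lost with the length offset in edgeR (adjusted P = 0.193) and in the 2 limma fits (0.32 and 0.33). TGFB2 rose by 0.12 (standard error 0.03, adjusted P = 0.0406), a call that was lost in 7 of 18 alternatives. The inflammatory cytokine genes TNF and IL6 were at 0 in every library and IL1B had 0 to 2 reads, and these 3 genes were picked with their values known.

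Receptors and adaptors of the IL-1, TNF, IL-17 and Toll-like pathways formed a list of 31 genes. Of these 30 were tested, 1 was called higher and 1 lower, near the shares over all tested genes, and the median log2 fold change was 0.02. RIPK1, a kinase of TNF receptor signalling, rose by 0.18 (standard error 0.05, edgeR adjusted P = 0.0556), and TRADD, an adaptor of the same receptor, fell by 0.24 (standard error 0.08, adjusted P = 0.0964). The call for RIPK1 was lost in 9 of 18 alternatives and that for TRADD in 14 of 18.

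Among 13 genes for NF-κB subunits and inhibitors, all tested, 2 were called higher and 0 lower, with a median of 0.04. NFKB2, which encodes the p100 precursor of p52, rose from 52.7, 55.5 and 55.3 CPM in shNT to 64.2, 66.2 and 64.0 CPM in shARMC5 cells (log2 fold change 0.25, standard error 0.04, edgeR adjusted P = 0.00125). With transcript length as an offset in edgeR its log2 fold change was 0.40 (adjusted P = 0.106) and with limma 0.37 and 0.36 (adjusted P = 0.16 and 0.181), so that the call was lost there. NFKBIE, an inhibitor of NF-κB, rose by 0.22 (standard error 0.07, adjusted P = 0.0989), with overlapping groups and a call that was lost in 13 of 18 alternatives. RELA and NFKB1, the subunits of the classical dimer, had log2 fold changes of 0.04 and 0.01 (standard error 0.04 each), and NFKBIA, the inhibitor that NF-κB itself induces, 0.02 (standard error 0.06); these 3 were named for their roles.

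The 15 factors that bind or destroy AU-rich mRNAs were all tested, with 1 called higher, 0 lower and a median of -0.01. That gene was ZFP36L1, an RNA-binding protein that promotes decay, which rose by 0.17 (standard error 0.03, edgeR adjusted P = 0.00554), a call that was lost with the length offset in edgeR (adjusted P = 0.135) and in the 2 limma fits (0.452 and 0.444). Of 5 genes for the shedding of CXCL16 and CX3CL1, TIMP3, an inhibitor of ADAM17, was called higher (0.30, standard error 0.07, adjusted P = 0.0316) and 0 were lower. The call for TIMP3 was lost in 7 of 18 alternatives. The proteases ADAM10 and ADAM17 were both at a log2 fold change of -0.04 (standard errors 0.03 and 0.04).

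For IL18, 17 genes of maturation, release and signalling were examined. Of these 8 were tested and none was called (1 at an unadjusted P value under 0.05 and 0 by DESeq2), with a median of -0.08. CASP1, a caspase that matures IL18, had 0 to 6 reads per library and its adaptor PYCARD was at 0 in all 6, and both were picked with their values known. The 2 most abundant genes of the list, the receptor SIGIRR and the inflammatory caspase gene CASP4, had log2 fold changes of 0.06 (standard error 0.05) and -0.05 (standard error 0.06).

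**Figure D5:**
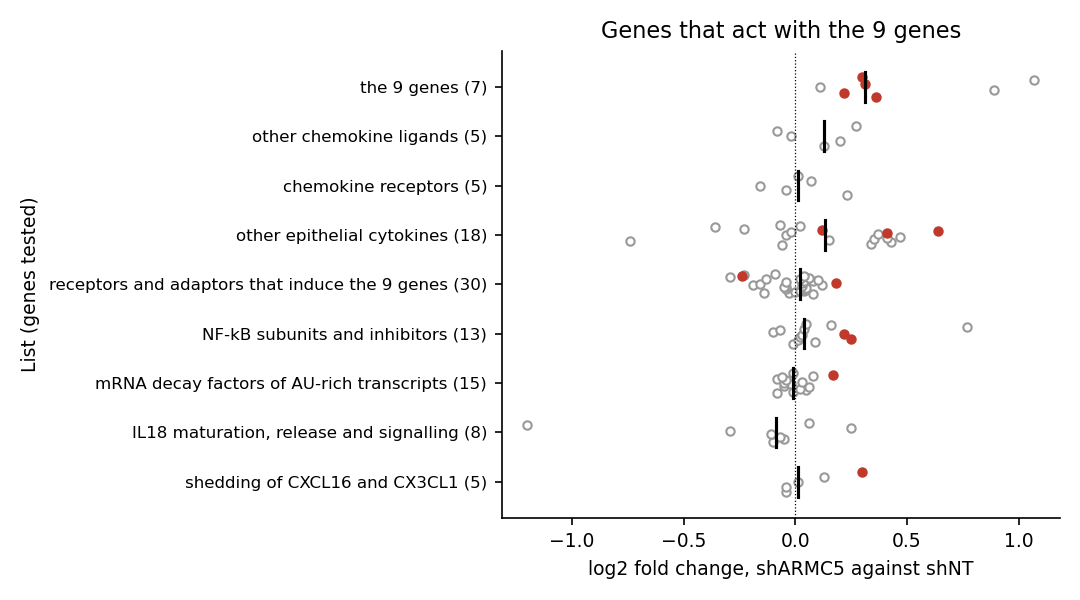
Log2 fold change (horizontal axis) of each tested gene of the 9 and of the 8 lists (vertical axis, with the number tested), filled red where called, with a black line at the median of the tested genes. The medians of the 8 lists lie between -0.08 and 0.14.

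Genes near the 9 on the chromosome were also examined. Within 200 kb of them 36 other genes were tested, of which 0 were called higher and 1 lower by edgeR, beside 4.44% and 3.3% of all tested genes. PELP1 (log2 fold change 0.08, standard error 0.03) was the 1 neighbour higher at an unadjusted P value under 0.05, and DESeq2 called 0 higher. The gene called lower was SPNS2, a sphingosine-1-phosphate transporter 194498 bases from CXCL16, which fell by 0.28 (standard error 0.04, edgeR adjusted P = 0.000787). MTHFD2L, 14978 bases from CXCL2, changed by a log2 fold of -0.08 (standard error 0.07), and PF4, 13615 bases from CXCL5, is described above.

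The 4 called genes were also set beside the 9329 tested genes whose mean level reached 10 CPM. Likeness was the root mean square difference of log2 CPM, each gene centred on its own mean over the 6 libraries. The profiles nearest to that of CXCL5 were those of PLK2 (0.0224), ITGB5 (0.0244) and GPRC5A (0.0249), and IL18 was at 0.0440. CXCL16 was nearest to REXO1 (0.0132), ZNF668 (0.0198) and QSOX1 (0.0201). CX3CL1, whose counts are lower, was nearest to PRAG1 (0.0503), GPRIN1 (0.0534) and F3 (0.0538). IL18 was nearest to THSD4 (0.0266), CHPF (0.0301) and PDLIM2 (0.0331). All 12 of these genes were called higher in shARMC5 cells, which the choice of a like profile brings with it.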

How the data were processed

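Before deposit, the authors used cutadapt 4.2 for trimming and salmon 1.9.0, with its GC correction, to estimate transcript abundance against a transcript set not named in the sources used here. The deposited files hold, for each of 177456 transcripts, an estimated count of reads, TPM, length and effective length, without normalization between libraries. The submitters' processing notes name hg38. Identifiers were matched without version to GENCODE 44 (165533 matched; 11923 were left out).

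Rounded sums of the estimated counts per gene were analysed in edgeR 4.0.16 under R 4.3.3. A gene entered the robust quasi-likelihood F test, run over the whole table, when 3 or more libraries had 10 or more counts, with TMM factors and Benjamini-Hochberg adjustment, called under 0.1, the study's threshold. The edgeR and DESeq2 fits used counts, and the permutation test and the comparison of libraries used CPM. Deposited TPM was used for limma and for levels between genes. Total estimated counts limit the precision of genes with few reads. Alternatives, listed in the closing section, used DESeq2 1.42.0 and limma 3.58.1. Named were the 9 genes, ARMC5, at most 5 called genes of each list in each direction (the 2 of highest level where none was called), neighbours within 200 kb, and the 3 most alike profiles of each called gene with at least 100 reads in every library. Other genes, such as markers, receptors, proteases and silent members of the lists, were named for their roles or with their values known. The members and lists were chosen with earlier results of these data known. Sequences came from RefSeq, transcript sequences from GENCODE, and alignments were made with biopython 1.88. Tests were tried on simulated data.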

Additional observations from a re-analysis of the deposited data

How the results depend on the processing

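Results were recomputed with library size only or the size factors of DESeq2 in place of TMM, transcript length offsets, DESeq2, all genes with at least 1 count, filterByExpr, a replicate block, each library left out, an adjusted P value under 0.05, unmatched transcripts added to the gene listed before them, and limma on TPM. CXCL5 (log2 fold change 0.29 to 0.33) and ARMC5 (-1.15 to -0.96) kept their direction and call in all 18 alternatives, and the sum of CXCL1, CXCL2 and CXCL3 (0.25 to 0.44) was never called. The count of the 9 genes called higher was 2 with the length offset in edgeR and 2 in DESeq2 with that offset, 1 with limma on log2(TPM + 0.1) and 1 on log2(TPM + 1), and 3 to 5 with a library left out. CXCL16 lost its call with the length offset (0.17 in edgeR, 0.16 in DESeq2) and in limma (0.15 with either pseudocount). CX3CL1 lost it with library size only (0.35), with DESeq2 (0.36), with the length offset (0.35 in both tools), in limma (0.33 and 0.26), under 0.05 (0.36) and in 5 of 6 fits with a library left out (0.27 to 0.40; the sixth, without shNT replicate 2, gave 0.42 and kept it). IL18 lost it in limma (0.28 with either pseudocount). With a library left out, CXCL2 lay between 0.65 and 1.40, CXCL8 between 0.75 and 1.66, and CXCL3 between -0.06 and 0.34, with -0.02 without shARMC5 replicate 3. With limma on log2(TPM + 1), CXCL2 and CXCL8 both fell to 0.45, and DESeq2 gave neither an adjusted P value. The cause of these changes was not tested.

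Over all genes, 877 were called by DESeq2, 235 were called with the length offset in edgeR, 568 in DESeq2 with it, 69 in limma with either pseudocount, 676 under 0.05 and 536 to 1085 with a library left out. The 8 lists had 1 gene called higher with the length offset in edgeR, 4 in DESeq2 with it, 0 in limma with either pseudocount, and 5 to 6 with a library left out. They had 0 called lower with the length offset in either tool, in DESeq2, with all genes of at least 1 count, with unmatched transcripts added, in limma and under 0.05, and 0 to 1 with a library left out. The calls for LIF, NFKB2 and ZFP36L1 were each lost in 3 of the 18 alternatives and that for TGFB1 in 2.

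The replicate numbers gave no clear pairing of the libraries. Deviations of same-numbered libraries from their group means correlated at 0, 0.028 and 0.035 over 12114 genes. Those of libraries with different numbers correlated at -0.055 to 0.027. shARMC5 replicates 2 and 3 correlated best with the shNT library of their own number, and shARMC5 replicate 1 with shNT replicate 2 (0.027). The replicate block raised the calls over all genes from 1064 to 1766 the list genes called higher from 8 to 9 and those called lower from 1 to 2, and left the 9 genes' calls as they were. Where a gene had under about 60 reads per library, as CXCL1, CXCL2, CXCL3, CXCL8 and CCL20 did, depth limits what can be seen.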
